A study of Mus musculus with 13 samples.

Results

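The active-chromatin landscapes of mouse embryonic stem cells (ESCs) and mouse embryonic fibroblasts (MEFs) were compared through their deposited peak lists for H3K27ac, acetylation of lysine 27 on histone H3. The ESC list held 25499 peaks and the MEF list 26591, together 52090 of the 164043 regions in the 12 peak lists of a 13-sample chromatin immunoprecipitation sequencing (ChIP-seq) series on the NCoR and SMRT co-repressors in reprogramming. Every peak of both lists entered the comparison, without selection on its score. The ESCs were of strain C57BL/6J, grown in a defined N2B27 medium with LIF, the GSK3 inhibitor CHIR99021 and the MEK inhibitor PD0325901. The MEFs were of strain C57BL/6J-OG2, in which Pou5f1 regulatory DNA drives a green fluorescent protein transgene. Both are labelled as day 0 with no treatment, and both libraries used the same anti-H3K27ac antibody. Each cell type had 1 library, so there was no spread between replicates and no test between cell types was made. Intervals in brackets are 95% Wilson intervals, which express counting error over regions and not variation among cultures. Read depth is unknown, so a missing peak may also be an undetected one.

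H3K27ac marks nucleosomes beside active promoters and active enhancers. Promoters of broadly used genes carry the mark in most cell types, whereas enhancers carry it in few. ESCs in the medium used here hold the naive pluripotent state, with OCT4 (Pou5f1), SOX2, NANOG, ESRRB, TFCP2L1 and KLF factors at its core. MEFs are mesenchymal cells that secrete collagens and other matrix, respond to TGF-beta and carry HOX expression set by their position in the embryo. Peaks at marker genes went with the labels. All 10 ESC marker genes had more peaks in ESCs, 64 against 10 in sum, and all 11 MEF marker genes had more in MEFs, 47 against 5. Neural markers were nearly bare, with 1 ESC peak over 5 genes and none in MEFs, and muscle markers had 2 ESC peaks and 1 MEF peak over 4 genes. Endothelial markers had 6 ESC and 11 MEF peaks over 5 genes. Pecam1 held 5 and 5 of these, Kdr 0 and 3, Cdh5 0 and 2, Emcn 0 and 1 and Tek 1 and 0. Blood and macrophage markers had 15 ESC and 12 MEF peaks over 5 genes, of which Cd68 held 7 and 4 and Spi1 held 4 and 5. Cd68 adjoins Eif4a1, a broadly used translation gene, so part of the Cd68 count can be that of Eif4a1. The part of other cells in the MEF list was not tested.

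The start regions of 7 genes show the classes of locus met below: acetylated in ESCs alone, in MEFs alone, or in both. A start was counted as acetylated where a peak centre lay within 1 kb of it. Each line gives the 250 bases before a RefSeq gene start (GRCm38.p6, the coordinates of mm10), read 5′ to 3′ on the strand of the gene. Capitals mark every match, on either strand, to any of 13 short motifs searched.
Zfp42 (ESC only at the start; chr8:43307010-43307259, minus strand): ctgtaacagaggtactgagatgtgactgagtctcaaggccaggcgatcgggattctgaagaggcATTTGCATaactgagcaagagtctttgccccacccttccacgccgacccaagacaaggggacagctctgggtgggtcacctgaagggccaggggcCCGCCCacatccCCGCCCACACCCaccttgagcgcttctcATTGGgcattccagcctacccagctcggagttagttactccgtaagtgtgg
Foxd3 (ESC only at the start; chr4:99656049-99656298, plus strand): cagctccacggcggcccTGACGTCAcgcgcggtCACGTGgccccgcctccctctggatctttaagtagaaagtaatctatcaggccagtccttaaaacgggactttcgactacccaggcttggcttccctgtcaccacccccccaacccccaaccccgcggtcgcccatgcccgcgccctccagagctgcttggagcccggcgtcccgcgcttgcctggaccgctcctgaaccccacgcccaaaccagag
Cldn4 (ESC only at the start; chr5:134946935-134947184, minus strand): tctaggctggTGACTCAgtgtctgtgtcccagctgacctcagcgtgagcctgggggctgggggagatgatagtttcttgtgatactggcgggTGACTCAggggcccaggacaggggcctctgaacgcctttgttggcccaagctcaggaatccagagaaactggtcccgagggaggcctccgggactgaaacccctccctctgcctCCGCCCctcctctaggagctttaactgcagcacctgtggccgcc
Twist2 (MEF only at the start; chr1:91801211-91801460, plus strand): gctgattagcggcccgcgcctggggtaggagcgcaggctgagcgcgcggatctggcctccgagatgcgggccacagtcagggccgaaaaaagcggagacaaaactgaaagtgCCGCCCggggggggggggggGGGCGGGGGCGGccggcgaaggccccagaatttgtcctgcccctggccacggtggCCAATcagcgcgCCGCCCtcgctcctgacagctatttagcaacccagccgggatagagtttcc
Cd44 (MEF only at the start; chr2:102901666-102901915, minus strand): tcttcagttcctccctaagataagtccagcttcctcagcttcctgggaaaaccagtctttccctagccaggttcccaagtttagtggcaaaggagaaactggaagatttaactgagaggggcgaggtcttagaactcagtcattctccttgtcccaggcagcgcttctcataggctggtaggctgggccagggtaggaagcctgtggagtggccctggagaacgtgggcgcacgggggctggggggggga
Tcf7l1 (both at the start; chr6:72789046-72789295, minus strand): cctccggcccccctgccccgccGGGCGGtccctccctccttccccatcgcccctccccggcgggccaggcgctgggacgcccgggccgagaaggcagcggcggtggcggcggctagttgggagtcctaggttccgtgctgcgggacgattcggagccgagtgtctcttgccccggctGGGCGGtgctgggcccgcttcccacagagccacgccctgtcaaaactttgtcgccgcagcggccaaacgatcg
Eef2 (both at the start; chr10:81176381-81176630, plus strand): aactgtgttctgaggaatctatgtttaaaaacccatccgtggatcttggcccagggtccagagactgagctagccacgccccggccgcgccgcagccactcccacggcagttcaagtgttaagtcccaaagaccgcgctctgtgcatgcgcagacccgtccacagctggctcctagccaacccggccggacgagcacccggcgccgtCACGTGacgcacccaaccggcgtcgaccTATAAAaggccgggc

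Zfp42 (REX1), a classical marker of naive pluripotency, Foxd3, a transcription factor of early embryonic cells, and Cldn4, a tight-junction claudin, represent ESC-only starts. Twist2, a mesenchymal transcription factor, and Cd44, the hyaluronan receptor, represent MEF-only starts. Tcf7l1, a repressor acting in the WNT pathway, and Eef2, a translation elongation factor, represent starts acetylated in both. The Zfp42 window held the octamer ATTTGCAT, bound by POU factors, which occurs in 1.66% of all 21237 RefSeq windows of 300 bases reaching 50 bases past the start. It also held CCAAT, a pair of GGGCGG boxes and GGGTGTGG, a KLF-type box that overlaps a GGGCGG match. Cldn4 held a pair of TGANTCA matches, the AP-1 site, found in 6.99% of all windows, although its start was acetylated in ESCs. Foxd3 held CACGTG, found in 7.84% of all windows, and TGACGTCA, found in 2.24%. Eef2 held CACGTG and a TATAAA box, the latter present in 12.6% of all windows. Tcf7l1 and Twist2 held several GGGCGG boxes, which occur in 46.2% of all windows, and the Cd44 sequence held none of the 13 motifs. A match is a description of the letters and not evidence of binding.

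Across all windows, base composition separated acetylated from unacetylated starts far more than it separated the cell types. The median number of CpG dinucleotides per 300-base window was 24 for the 9654 windows acetylated in both, 15 for the 1066 acetylated in ESCs alone, 13 for the 1153 acetylated in MEFs alone and 3 for the 9364 acetylated in neither. The median GC content followed the same order, at 62.7%, 60.7%, 58% and 48.3%. The ETS-type motif CCGGAAG was in 21.4% of windows acetylated in both (interval 20.6 to 22.2%), against 7.04% (5.65 to 8.73%) for ESC-only and 7.29% (5.92 to 8.93%) for MEF-only windows and 11.6% of all windows. The 2 cell-type-specific classes differed in the AP-1 site TGANTCA, held by 8.76% of MEF-only windows (7.26 to 10.5%) and 4.97% of ESC-only windows (3.82 to 6.45%). Windows acetylated in neither held it at 10.3%, so the MEF-only share was not high against unacetylated starts, and it was 6.75% when only the top 50% of each list by score was used. The RUNX-type ACCACA was in 15.1% of MEF-only and 11.1% of ESC-only windows, against 15.0% of all windows. The octamer ATTTGCAT was in 2.44% of ESC-only windows (1.67 to 3.55%) and 1.30% of MEF-only windows (0.79 to 2.14%), with overlapping intervals. TCAAGGTCA, the ESRRB-type site, was in 6 of the 1066 ESC-only windows and 1 of the 1153 MEF-only windows. The other motifs with a factor prominent in either cell type, ACATTCC of TEAD factors and GGGTGTGG of KLF factors, had overlapping intervals between the ESC-only and MEF-only windows. Windows of 1 class differ in CpG content from those of another, and the part of composition in these motif shares was not tested.

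The first comparison asked how much of the acetylated landscape the cell types held in common. Peaks were counted as shared where they overlapped by at least 1 bp. A total of 9529 ESC peaks met 9529 MEF peaks, 37.4% of the ESC list (36.8 to 38.0%) and 35.8% of the MEF list (35.3 to 36.4%). This left 15970 ESC-only and 17062 MEF-only peaks. Every deposited interval is 200 bp wide, and the centres of overlapping peaks were a median of 65 bp apart, so the overlap rule asks for nearly the same summit. Of the ESC-only peaks, 15.5% (15.0 to 16.1%) still had a MEF peak centre within 1 kb and 27.1% within 5 kb, and of the MEF-only peaks 14.5% (13.9 to 15.0%) and 22.8%. Isolated peaks were more frequent in MEFs: 20.0% of MEF-only peaks (19.4 to 20.6%) had no ESC peak within 100 kb, against 11.6% of ESC-only peaks (11.1 to 12.1%) with no MEF peak. The median distance to the nearest peak of the other cell type was 24.9 kb for MEF-only and 14.1 kb for ESC-only peaks.

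Shared peaks lay at gene starts and cell-type-specific peaks lay away from them. Within 1 kb of a gene start were 81.3% of the shared peaks (80.5 to 82.0%), 16.6% of the ESC-only peaks (16.0 to 17.1%) and 15.7% of the MEF-only peaks (15.2 to 16.3%). The median distance to a start was 0.245 kb for shared, 15.3 kb for ESC-only and 24.4 kb for MEF-only peaks. MEF-only peaks were the more remote set, with 32.1% (31.4 to 32.8%) over 50 kb from any start against 21.3% of ESC-only peaks. Part of this order turned among the top 50% of each list by score, where 37.7% of MEF-only peaks (36.5 to 38.9%) and 31.9% of ESC-only peaks (30.7 to 33.1%) were at starts. These sets were redefined among the top 50% alone, so some of their peaks overlap a lower-scoring peak of the other list. In the full lists such peaks count as shared. The median distances in the top 50% were 8.12 and 8.99 kb, while 20.5% of MEF-only and 16.5% of ESC-only peaks were still over 50 kb away. Over all scores, MEF-only peaks also lay more often than ESC-only peaks inside a gene body away from its start, 47.0% (46.2 to 47.7%) against 41.8% (41.0 to 42.6%). Turned around, 74.6% of the ESC peaks at starts were shared (73.7 to 75.4%) but only 11.8% of those elsewhere (11.3 to 12.3%). In MEFs these shares were 74.3% and 11.0%. Allowing centres within 1 kb raised the shares to 88.2% at starts and 18.9% elsewhere in ESCs, and to 87.7% and 17.6% in MEFs, so that the contrast by position remained. Around stranded starts, 80.9% of shared peaks within 1 kb lay downstream of the start, against 70.7% of ESC-only and 73.2% of MEF-only peaks.

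**Figure D1:**
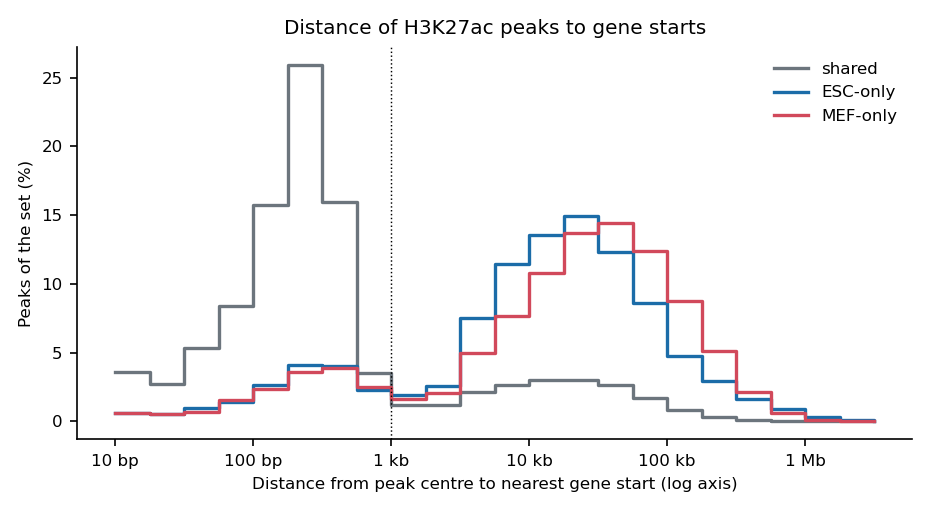
Distance from each H3K27ac peak centre to the nearest gene start (log axis, bp to Mb) against the percentage of the peaks of each set, for shared (grey), ESC-only (blue) and MEF-only (red) peaks; the dotted line is 1 kb. Shared peaks pile up below 1 kb, with a median of 0.245 kb, while ESC-only and MEF-only peaks spread around medians of 15.3 and 24.4 kb.

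Sharing followed the deposited score, the authors' own value per peak, which runs up to a ceiling of 200 and was used within a list only. In ESCs 50.1% of shared peaks (49.0 to 51.1%) stood at the ceiling, against 9.16% of ESC-only peaks (8.72 to 9.62%). In MEFs the shares were 57.6% (56.6 to 58.6%) and 8.19% (7.79 to 8.62%). The difference held within each position class. At gene starts 56.2% of shared and 26.7% of ESC-only peaks were at the ceiling in ESCs, and elsewhere 23.5% and 5.69%. In MEFs the same pairs were 64.7% and 31.9% at starts, and 26.7% and 3.77% elsewhere. From the highest to the lowest score quartile, the shared percentage of the ESC list went from 76.2% over 42.6% and 19.8% to 10.9%, and that of the MEF list from 79.5% over 40.2% and 15.7% to 8.08%. Peaks tied at the ceiling straddle the border of the highest MEF quartile.

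**Figure D2:**
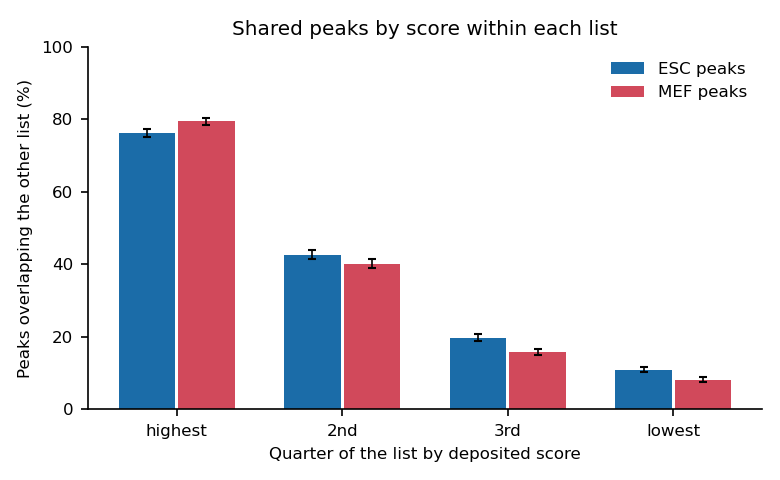
Percentage of the peaks of each list that overlap a peak of the other list (y axis) by quartile of the deposited score (x axis), for ESC (blue) and MEF (red) peaks; error bars are 95% Wilson intervals. The percentage falls from 76.2% to 10.9% in ESCs and from 79.5% to 8.08% in MEFs.

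To relate the landscapes to genes, peaks were counted in the body of each of 21883 protein-coding genes plus 20 kb on each side, a window called a locus here. A peak in it can belong to a neighbouring gene. A locus was called higher in a cell type where it had at least 3 more peaks there. By this rule 1328 loci were higher in ESCs, 6.07% of all, and 1193 were higher in MEFs, 5.45%. By any difference 6077 loci (27.8%) had more peaks in ESCs and 4974 (22.7%) had more in MEFs. Another 5162 had equal counts above 0 and 5670 had no peak in either. Which cell type had more called loci depended on the rule: the top 50% of each list by score gave 325 in ESCs and 366 in MEFs, 5 kb flanks gave 598 and 795, and a difference of 3 peaks per 100 kb of window gave 1915 and 1226. By any difference the top 50% had 3304 loci with more peaks in ESCs and 3924 with more in MEFs. Of the called loci 270 of 1328 for ESCs and 269 of 1193 for MEFs were still called in the top 50%, which holds fewer peaks, and this is the background for the lists below. Another 55 loci were newly called higher in ESCs there and 97 higher in MEFs. Genes of called loci were longer, with a median length of 31.1 kb for loci higher in ESCs and 77.1 kb for loci higher in MEFs. The median was 17.2 kb for all genes and 22.1 kb for genes with any peak in their locus, and longer genes have larger windows. Most called loci were acetylated at their start in both cell types, 60.1% of those higher in ESCs (57.4 to 62.7%) and 54.3% of those higher in MEFs (51.5 to 57.1%), against 45.7% of all genes. The share of all genes includes the 5670 with no peak, whereas a called locus holds at least 3. The 45.7% is therefore a low background, and no excess over loci with peaks is shown by it. A start acetylated in the matching cell type alone was found at 20.1% of loci higher in ESCs and 25.7% of loci higher in MEFs.

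The loci with the largest differences were mostly long genes with peaks along their bodies. In ESCs the first was Etl4, with 35 ESC and 2 MEF peaks, of which 34 and 2 lay in the 900.3 kb gene itself. It was followed by Rnf220, a ubiquitin ligase gene, with 22 and 2, and by Ptprg, a receptor tyrosine phosphatase gene, with 21 and 7. Esrrb, the orphan nuclear receptor of naive pluripotency, was the only gene of the naive regulator list among the 15 loci, with 11 ESC peaks, all in the gene body, and none in MEFs. Its ESC scores ranged from 7.74 to 200, with 3 peaks at the ceiling. Eps15l1, with 12 ESC peaks and 1 MEF peak, adjoins Klf2, so part of its count is that of the Klf2 region. Others were Elovl6, a fatty acid elongase gene, with 12 and 1, Ak4, a mitochondrial adenylate kinase gene, with 12 and 1, Deptor, an mTOR inhibitor gene, with 14 and 3, and Bmerb1 with 11 and 0. In MEFs Dnm3, a dynamin gene, had 32 peaks against 1 in ESCs, with 29 of them in the gene. Foxp1, a forkhead factor gene, and Lpp, which encodes a focal adhesion protein, each had 26 against 3. Mbnl2, a splicing regulator gene, had 19 against 0, Parva, which encodes the integrin-linked adaptor parvin, 18 against 1, Igf1r, the receptor of insulin-like growth factor, 18 against 2, and Rbms3, an RNA-binding protein gene, 16 against 0. With the top 50% of each list by score the order of the cell types was unchanged at Etl4 (14 and 0), Rnf220 (9 and 2), Ptprg (4 and 1), Esrrb (4 and 0), Dnm3 (1 and 12), Foxp1 (2 and 9), Lpp (1 and 9) and Mbnl2 (0 and 5).

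**Figure D3:**
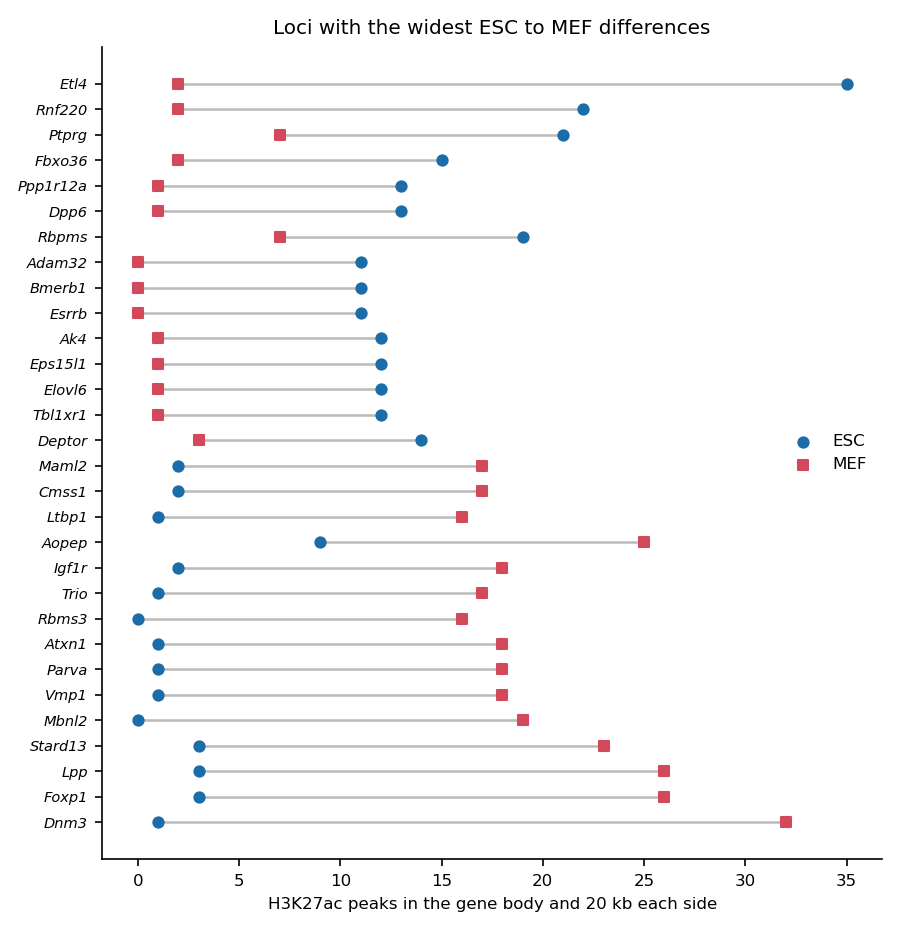
H3K27ac peak count per locus, the gene body with 20 kb on each side, (x axis) for the 15 loci with the largest differences in each direction, in ESCs (blue circles) and MEFs (red squares), 1 library each. Etl4 stands out with 35 ESC against 2 MEF peaks and Dnm3 with 32 MEF peaks against 1 ESC peak.

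Genes of 29 lists were then read against these backgrounds. The naive pluripotency regulators carried more peaks in ESCs at 15 of 16 genes and were called higher at 10, with none called higher in MEFs and a median difference of 3.5 peaks, where the median over all genes was 0. Together their loci held 80 ESC and 16 MEF peaks. Besides Esrrb, Tfcp2l1, a transcription factor of the naive state, had 9 peaks against 0, Nr5a2, an orphan nuclear receptor, 6 against 0, and Zfp42 5 against 0. Klf2, a Krüppel-like factor, had 9 against 2, but only 2 against 1 with 5 kb flanks, since most of its peaks lie farther out. Sox2 had 5 against 1 and Nanog 5 against 1. At their starts 7 of the 16 were acetylated in ESCs alone, 4 in both, 1 in MEFs alone and 4 in neither. Lin28a, which encodes an RNA-binding protein that blocks let-7 maturation, was equal at 1 and 1. Of the 10 calls 5 remained in the top 50%, 2 other genes were newly called there, and 13 of the 16 genes still had more peaks in ESCs.

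Pou5f1, the gene of OCT4, differed little by count, with 7 ESC and 6 MEF peaks and 1 overlapping pair. In ESCs, 5 of the 7 peaks were at the ceiling of 200, at -7.1, -2.9, 1.0, 3.8 and 8.4 kb from the start, and the other two had scores of 17.1 and 48.0. In MEFs the peak at 7.3 kb had 200, those at 11.7 and -3.4 kb had 67.2 and 44.8, and the 3 others lay at or below 11.4. The overlapping pair at 1.0 kb thus stood at the ceiling of the ESC list and among the 3 lowest of the MEF peaks here. The scale of the scores is not stated, so they were not compared between the lists. Its centres fell on either side of the 1 kb limit, which is why the start was counted as acetylated in MEFs alone. The MEF strain carries additional Pou5f1 regulatory DNA in its transgene, and reads from it and from the gene itself cannot be told apart in a peak list.

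The pluripotency effectors and markers favoured ESCs by peak count at 19 of 20 genes, 13 by 3 or more, with 102 ESC and 22 MEF peaks in sum and a median difference of 3. Tet2, which oxidises 5-methylcytosine, had 10 ESC peaks and 1 MEF peak, Mybl2, a cell-cycle transcription factor, 10 and 1, Jarid2, a Polycomb complex 2 subunit, 11 and 3, Alpl, the alkaline phosphatase used as a stem cell stain, 6 and 0, and Dppa5a 6 and 0. Nodal, a TGF-beta family ligand gene, and Tdgf1, the gene of its co-receptor, each had 5 and 0. Of the 13 calls 8 remained in the top 50%, where Jarid2 had 4 and 2. Formative and primed genes were divided, with 6 of 12 higher in ESCs and 4 higher in MEFs by any number. Foxd3 (8 and 0), Otx2 (5 and 0) and Zic2 (4 and 0), all of them transcription factors of early epiblast, and Etv5 (9 and 4), an ETS factor, were called higher in ESCs, whereas Fgf5, the growth factor that marks the primed state, had 0 and 2. All 4 calls remained among the top 50% of peaks, with Foxd3 at 3 and 0.

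Polycomb and DNA methylation genes formed another ESC-leaning list. Jarid2 and Tet1 belong to it and to the pluripotency effectors and markers above, so these lists are not fully separate. Of 16 genes 14 had more peaks in ESCs, 7 by 3 or more, with a median difference of 2 and 88 ESC against 40 MEF peaks. Kdm2b, which recruits Polycomb complex 1 to CpG islands, had 11 and 2, Mtf2, a Polycomb complex 2 accessory factor, 10 and 1, Tet1 9 and 4, and Rnf2, the catalytic ubiquitin ligase of Polycomb complex 1, 5 and 1. Tet3, the remaining TET dioxygenase, went the other way with 3 and 5, while Ezh2, the methyltransferase of Polycomb complex 2, was equal at 1 and 1. Starts did not separate the cell types here: 15 of the 16 were acetylated in both, so the difference lay in peaks away from starts. It was smaller at higher scores: 2 of the 7 calls remained in the top 50%, where the median difference was 1, Kdm2b had 4 and 2 and Rnf2 1 and 1. Another gene of the list was newly called higher in ESCs there. Among epithelial genes 11 of 18 had more peaks in ESCs and 3 had more in MEFs. Cdh1, which encodes E-cadherin, had 12 and 2, Cldn4 6 and 2, and Cldn3, another claudin gene, 4 and 1. The top 50% kept 2 of the 4 calls of this list, Cdh1 with 8 and 1 and Cldn4 with 4 and 1, and its median difference went from 1 to 0. The keratin genes of simple epithelia did not follow: Krt8 had 1 and 2, Krt18 0 and 1, and Krt19 no peak.

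On the MEF side, collagens were the most uniform list. Of 16 fibrillar and basement membrane collagen genes, 15 had more peaks in MEFs, 11 by 3 or more, none had more in ESCs, and the median difference was -3 peaks. Their loci held 12 ESC and 70 MEF peaks. Col4a2, of basement membrane collagen, had 1 ESC and 11 MEF peaks, Col1a1, of the main fibrillar collagen, 1 and 7, Col5a1 1 and 7, Col4a1 1 and 6, and Col6a3 0 and 5. Col4a1 and Col4a2 are neighbours, so their windows share peaks. Col18a1 was equal at 4 and 4. Of the 11 calls 3 remained in the top 50%, Col4a2 (1 and 5) and Col1a1 (0 and 4) among them, and 13 genes still had more peaks in MEFs. Mesenchymal transcription factors had more peaks in MEFs at 15 of 18 genes, 9 by 3 or more, with none higher in ESCs. Prrx1, a limb mesenchyme homeobox factor, had 0 and 7, its paralog Prrx2 2 and 8, Foxc2 2 and 7, Tbx15 1 and 6 and Twist2 0 and 5. Snai1, a repressor of Cdh1 in the epithelial to mesenchymal transition, had 0 and 3, and Zeb2 1 and 6. Only 1 of the 7 Prrx1 peaks was among the top 50% of the MEF list, and 3 of the 9 calls of these factors remained there.

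The other matrix genes had more peaks in MEFs at 16 of 24, 9 by 3 or more, and in ESCs at 3. Fbn1, which encodes the microfibril protein fibrillin, had 12 MEF peaks from 20.0 kb before the start to beyond the gene end and no ESC peak. Just 2 of these 12 had high scores, 200 at 0.3 kb and 197 at 203.3 kb, and the other 10 lay between 7.21 and 25.2. Fbln2, the fibulin gene, had 0 and 9, Timp2 2 and 10 and Timp3 0 and 6, both of them inhibitors of matrix metalloproteinases. None of the 6 Timp3 peaks was among the top 50% of the MEF list, where 2 of the 9 MEF calls of the matrix genes remained, Fbln2 with 0 and 4 and Timp2 with 1 and 4. Another matrix gene was newly called higher in MEFs there. Fn1, the gene of fibronectin and a textbook mesenchymal matrix product, ran against its list with 7 ESC peaks and 1 MEF peak. Its start was at the ceiling of 200 in both, and the 6 further ESC peaks had scores of 7.91, 8.58, 9.27, 19.8, 34.9 and 181, the last near the outer edge of the window. Among the top 50% Fn1 had 2 and 1, below the size of a call. Sparc was equal at 5 and 5 with no overlapping pair, and Vcan had 2 and 1.

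TGF-beta pathway genes had more peaks in MEFs at 14 of 18, 10 of them by 3 or more, with 40 ESC and 111 MEF peaks and a median difference of -3. Among the ligand-handling proteins, Ltbp1 and Ltbp2, which hold latent TGF-beta in the matrix, had 1 and 16 and 3 and 11. Among receptors, the co-receptor gene Tgfbr3 had 2 and 13 and the type II receptor gene Tgfbr2 1 and 5, while the type I receptor gene Tgfbr1 was equal at 1 and 1. Among signal transducers, Smad3 had 4 and 15, whereas Smad2 was equal at 1 and 1. The inhibitory SMAD genes Smad7 and Smad6 had 1 and 9 and 2 and 7. Tgif1, which encodes a repressor of SMAD-driven transcription, was the single member with more peaks in ESCs, 8 and 2, and 6 and 1 among the top 50%. Smad3 (1 and 8), Tgfbr3 (0 and 4), Ltbp2 (1 and 5), Smad7 (1 and 5) and Ltbp1 (1 and 4) were among the 6 of 10 MEF calls that remained there.

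Fibroblast surface receptors and integrins had more peaks in MEFs at 16 of 18, 8 by 3 or more. Ddr2, a collagen receptor, had 1 and 9, Cd44 0 and 7, Lrp1, an endocytic receptor, 4 and 10, the integrin genes Itgb5 and Itga5 7 and 12 and 1 and 6, and Cav1, of caveolae, 0 and 4. The top 50% kept 3 of these 8 calls, while Cd44 had 0 and 2 and Itga5 1 and 2. Another 3 genes of the list were newly called higher in MEFs there, and 14 of the 18 still had more MEF peaks. Contractile and cytoskeletal genes leaned the same way by smaller steps, 13 of 20 higher in MEFs but 3 by 3 or more: Cald1 (caldesmon) with 4 and 14, Myh9 (non-muscle myosin) with 6 and 11 and Tpm1 (tropomyosin) with 2 and 7. None of these 3 calls remained among the top 50%, where Myh9 turned to 1 more ESC than MEF peak. Another 3 genes of the list were newly called higher in MEFs there, and 13 of the 20 still had more MEF peaks. Signalling genes of the LIF, BMP and FGF pathways also had more peaks in MEFs, at 10 of 17, with Fgfr2 at 1 and 8 and Jak1, a kinase of the LIF receptor, at 1 and 7. Both fell below a call in the top 50%, at 0 and 1 and at 1 and 1, while another gene of the list was newly called higher in MEFs. AP-1 genes had more MEF peaks at 8 of 12 but passed 3 at only Fosl1 (4 and 7) and Fosl2 (1 and 4), and Jund had 4 and 2. In the top 50% Fosl1 remained called, and the median difference was 0 for the AP-1 list and for the LIF, BMP and FGF list, from -1 each.

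Several transcription factor families were divided between paralogs. Runx1 had 1 and 12 and Runx2, the bone master regulator, 2 and 11, whereas Runx3 had 2 and 0. Runx2 stayed called in the top 50% with 1 and 4, and Runx1 had 1 and 3. In the Hippo pathway Tead1 had 8 and 17, Vgll4, a TEAD cofactor, 3 and 11 and the kinase gene Lats2 1 and 6, while Tead4 had 8 and 3, Yap1, the TEAD coactivator, 6 and 3, the kinase gene Stk3 5 and 2 and Tead2 4 and 1. Thus 4 of the 14 Hippo genes were called higher on each side. None of the 4 ESC calls remained among the top 50%, with 3 and 3 at Tead4, 2 and 1 at Yap1, 1 and 1 at Stk3 and 3 and 1 at Tead2. Of the MEF calls Vgll4 (1 and 5) and Lats2 (1 and 4) remained, and Tead1 had 4 and 3. Among the TCF and LEF effectors of WNT signalling, Tcf7l2 had 2 and 9 and Lef1 0 and 2, Tcf7 had 5 and 3, and Tcf7l1 8 and 8. Tcf7l2 was at 2 and 2 in the top 50%. Of the limb and body position factors, Gli3, of hedgehog signalling, had 1 and 8 and the homeobox gene Meis1 3 and 8. Among the top 50% Gli3 had 1 and 1 and Meis1 0 and 4. Of the D-type cyclin genes, Ccnd3 had 15 and 8, Ccnd1 2 and 4 and Ccnd2 1 and 3.

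The co-repressor complex that the series studies was itself divided. Its 12 genes had 58 ESC and 63 MEF peaks, all 12 starts were acetylated in both, and 6 had more peaks in ESCs and 5 in MEFs. Ncor1, the gene of NCoR, had 12 ESC peaks and 2 MEF peaks, and Tbl1xr1, which encodes a complex subunit, had 12 and 1. The class IIa deacetylase genes had more peaks in MEFs, with 2 and 9 at Hdac4, 3 and 9 at Hdac5 and 3 and 8 at Hdac7. Hdac3, the enzyme of the complex, was equal at 4 and 4, and Gps2, another subunit, had 5 and 3. At Ncor1 the start stood at 200 in both, the ESC peak at 26.2 kb had 148 and the other 10 ESC peaks ranged from 6.67 to 38.8. Among the top 50% of peaks Ncor1 therefore had 3 and 1, Tbl1xr1 3 and 1 and Hdac4 1 and 3, all below the size of a call, while Hdac5 with 3 and 7 and Hdac7 with 1 and 4 remained called.

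**Figure D4:**
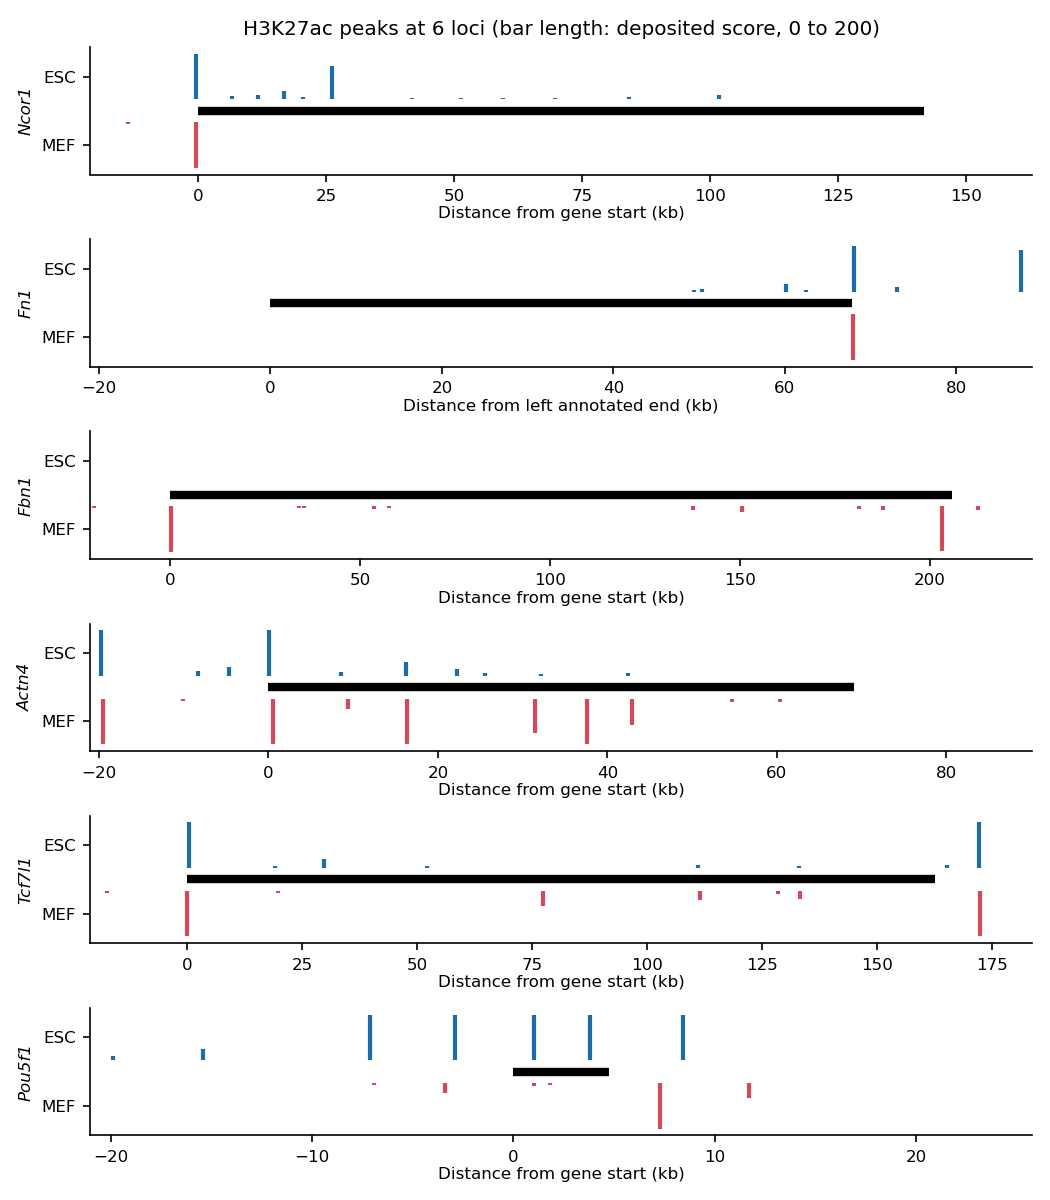
H3K27ac peaks at 6 loci, with ESC peaks above (blue) and MEF peaks below (red) the gene body (black), by distance from the gene start in kb (from the left annotated end for Fn1, for which the promoter table has no entry). The length of each bar is the deposited score, from 0 to 200. Ncor1 and Fn1 carry mainly low ESC bars away from the start, Actn4 carries 4 MEF bars at 200 among its 10, and at Tcf7l1 most ESC and MEF bars stand in near register.

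The HOX genes, which specify position along the body axis, differed by cluster. Of the 39 genes 27 had more peaks in MEFs, 24 by 3 or more, and 9 had more in ESCs. Their windows overlap, so peaks within the cluster spans were also counted once. The Hoxa span of 105.5 kb held 7 ESC and 23 MEF peaks with 4 overlapping pairs, and the Hoxb span 1 ESC and 14 MEF peaks with none. The Hoxc span held 9 and 10 and the Hoxd span 7 and 5, so neither leaned strongly. Within Hoxc the genes at one end had ESC peaks alone, 5 and 0 at Hoxc12 and 4 and 0 at Hoxc13, while Hoxc8 had 2 and 6 and Hoxc9 2 and 5. The strongest MEF windows were Hoxa3 with 5 and 17 and Hoxb3 with 1 and 11. In the top 50%, 17 of the 24 MEF calls and neither of the 2 ESC calls remained, with Hoxc12 and Hoxc13 at 2 and 0 each. Another HOX gene was newly called higher in MEFs there.

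**Figure D5:**
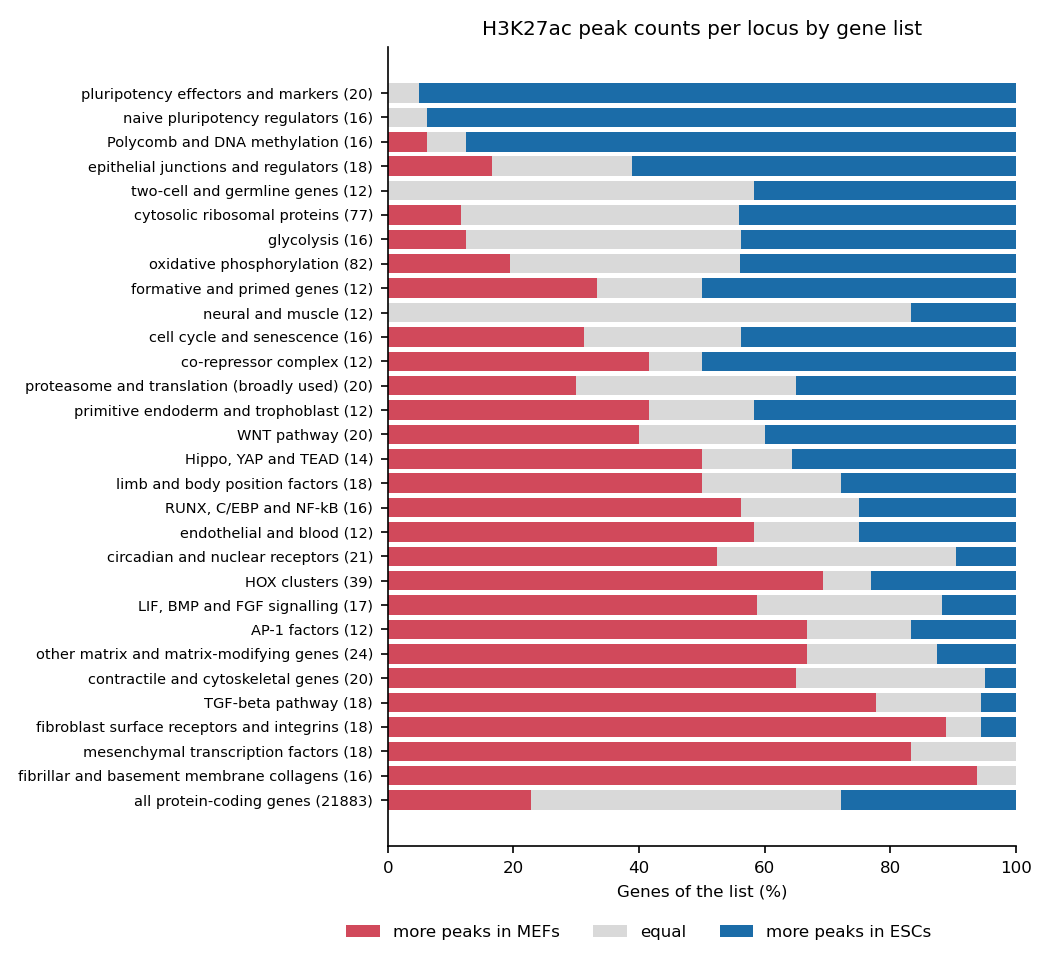
Percentage of the genes of each list (x axis, list size in brackets) with more H3K27ac peaks in MEFs (red), equal counts (grey) or more peaks in ESCs (blue), beside all 21883 protein-coding genes. Both pluripotency lists are nearly all blue, with 15 of 16 and 19 of 20 genes, and the collagens nearly all red, with 15 of 16.

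Lists of broadly used genes lay closer to the background, and their lean depended on whether all peaks or the top 50% were used. Of 77 cytosolic ribosomal protein genes, 34 had more peaks in ESCs, 9 more in MEFs and 34 equal counts, with a median difference of 0, and 71 of the starts were acetylated in both. Oxidative phosphorylation genes had 36 of 82 higher in ESCs and 16 higher in MEFs, also with a median of 0. Glycolysis genes had 7 of 16 and 2, with Slc2a3, a glucose transporter gene, at 9 and 5. The Slc2a3 window takes in most of the Nanog gene, so part of its count can be that of the Nanog region. In the top 50% the ribosomal protein genes had 12 higher in ESCs and 15 in MEFs, the oxidative phosphorylation genes 17 and 14 and the glycolysis genes 3 and 8. Proteasome and translation genes were even over all peaks, with 7 of 20 higher in ESCs and 6 in MEFs and all 20 starts acetylated in both. In the top 50% they had 6 higher in ESCs and 1 in MEFs, none of them by the size of a call. Neural and muscle genes had no peak in either cell type at 8 of 12.

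Equal counts did not mean shared peaks. Of the 1267 loci with equal counts of 3 or more, 46 had no overlapping pair, and 68 had at least 3 peaks of each cell type lying over 1 kb from any peak of the other. In contrast, 600 had every peak within 1 kb of a peak of the other cell type. Actn4, an alpha-actinin gene, had the most peaks at equal counts, 10 and 10 with 1 overlapping pair, of which 4 in each cell type were over 1 kb from the other. Its paralog Actn1 had 8 and 8 with 1 overlapping pair and 3 distant peaks each. Lima1, an actin-binding protein gene, had 9 and 9 with 6 distant peaks each, and Lamc1, a laminin subunit gene, 8 and 8 with 5 each. Tcf7l1 had 8 and 8 with no overlapping pair, but 5 of the 8 in each cell type had a partner within 1 kb, including the starts and a pair 172 kb downstream, all 4 at the ceiling of 200. The 1 bp rule thus counts some neighbouring ESC and MEF peaks under 1 kb apart as peaks of a single cell type.

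In all, 275 loci (1.26% of all) had at least 3 peaks in each cell type that lay over 1 kb from the other type's peaks. Called loci were among them, 48 higher in ESCs and 52 higher in MEFs. Gse1, a co-repressor subunit gene, had 12 distant ESC and 13 distant MEF peaks, Smyd3, a methyltransferase gene, 10 and 11, Dlc1, a GTPase-activating protein gene, 8 and 16, and Aff1, of the super elongation complex, 11 and 7. At Dlc1 none of the 9 ESC and 17 MEF peaks overlapped. These 4 were chosen after their values were seen.

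Peaks of 1 list were joined where gaps were at most about 13 kb, which gave 607 dense clusters of 5 or more peaks in ESCs and 346 in MEFs, with 16.0% and 8.21% of the peaks of their lists. Peaks in dense clusters were shared less often than those outside, 22.1% against 40.3% in ESCs and 19.9% against 37.3% in MEFs, and were at gene starts less often, 22.7% against 44.2% and 21.3% against 40.8%. In ESCs the top cluster held 19 peaks over 95.2 kb at Klf2 and Eps15l1, with 3 MEF peaks in the same span. Another with 19 ESC peaks, at Gabbr1 and Zfp57, an imprinting factor gene, held 8 MEF peaks, and those at Reep3 and Hs6st1 held 18 and 17 with 3 and 4 MEF peaks. In MEFs the top cluster was Hoxa, with 23 peaks and 6 ESC peaks, and others were Hoxb with 16 and 0, Mbnl2 with 15 and 0, Vmp1 with 13 and 0 and Parva with 12 and 0.

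Other libraries of the series gave readouts that the overlap rule did not use. Peaks of NCoR in ESCs overlapped 14.6% of the shared peaks at gene starts (13.9 to 15.4%) and 7.45% of the ESC-only peaks at starts (6.51 to 8.52%). Away from starts they overlapped 0.983% of ESC-only peaks (0.829 to 1.17%) and 0.223% of MEF-only peaks (0.158 to 0.314%). SMRT peaks in ESCs gave 15.6%, 8.32%, 1.03% and 0.299% for the same 4 sets. Of the MEF-only peaks at starts, NCoR peaks in ESCs overlapped 4.58% (3.86 to 5.44%) and SMRT peaks 5.44%. The co-repressor lists are short, with 3687 and 4324 peaks, which limits the shares they can reach.

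H3K27ac of MEFs under reprogramming by OCT4, SOX2, KLF4 and c-MYC (OSKM) was also available from days 5, 9 and 13, in cultures given either FLAG as a control or HDAC3-Y298F, a deacetylase-null HDAC3. Shared peaks at starts were overlapped by 78.3 to 84.7% in the 6 lists. MEF-only peaks at starts were overlapped by 37.1 to 45.4% and ESC-only peaks at starts by 24.1 to 39.6%. Counting centres within 1 kb, these shares were 56.4 to 63.4% and 47.5 to 61.1%. Away from starts the shares were far lower, 4.85 to 11.5% for MEF-only and 4.62 to 6.10% for ESC-only peaks. Peaks at starts that are ESC-only or MEF-only by the 1 bp rule often had a neighbour of the other cell type. Of 10387 ESC peaks at starts 7744 overlapped a MEF peak and 9156 had a MEF centre within 1 kb. The 10430 MEF peaks gave 7747 and 9147. The sets are therefore not starts acetylated in 1 cell type alone. In 5 of the 6 lists the share was lower for ESC-only than for MEF-only peaks at starts, by either rule. The exception was the mutant list at day 13. It overlapped 39.6% of ESC-only (37.8 to 41.5%) and 37.1% of MEF-only peaks at starts (35.2 to 38.9%), and the intervals overlap. At that day the FLAG list overlapped 27.5% (25.9 to 29.3%) and 38.5% (36.7 to 40.4%). Each of these lists is 1 library too, with 14251 peaks for the mutant and 15394 for FLAG at day 13, and no test between them was made.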

How the data were processed

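Mouse ESC and MEF H3K27ac ChIP-seq was analysed from deposited peak lists, with 10 further peak lists as readouts. Per the submitters' processing notes, the authors used Bowtie2 2.2.0, MACS 1.4 and the build mm10; settings, pooling and read depth are not given in the sources used here. Each deposited interval is 200 bp wide and carries a deposited score of unstated scale, compared only within a list. H3K27ac starts lie on a 50 bp grid, and neighbours under 3 kb apart are few (3.86% of ESC and 1.75% of MEF spacings), so a broad region appears as about 1 interval.

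Overlaps, distances and counts were computed in Python 3.11.15 with pandas 2.3.3 and numpy 2.4.6, tested on simulated data. RefSeq (GRCm38.p6) gave 21883 genes. Starts came from its promoter table for 17491 and from both annotated ends for 4392. All genes of the 29 lists (621 distinct) matched by symbol. The genes named were up to 5 per list with the largest absolute difference, members differing by 2 or more against their list, the 15 loci with the largest difference on each side, the 10 with the most peaks at equal counts and the genes of the 10 densest clusters. Other genes named were list members chosen after their values were seen. Members and lists were chosen with earlier results of these data known. Alternatives were another overlap rule, score subsets, merging, other flanks, start distances and gaps, and, added later, both ends of every gene, leaving out chromosome 8 and a difference per 100 kb, chosen after seeing the data. The planned motif search in peaks was not made, since no genome was used here. Some genes meeting this rule were left out of the text.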

Additional observations from a re-analysis of the deposited data

How the results depend on the processing

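The shared percentage of ESC and MEF peaks was 26.1% and 25.0% with an overlap of 50% of the shorter interval, 47.1% and 45.1% with centres within 1 kb, 54.1% and 51.9% for the top 50% of each list by score, and 37.1% of MEF peaks with equal numbers. The percentages of shared, ESC-only and MEF-only peaks at starts were 90.3%, 31.9% and 37.7% in the top 50%, 83.1%, 19.8% and 18.3% within 2.5 kb, and 73.8% of shared and 14.4% of MEF-only peaks with both ends of every gene. For the top 50% the sets were redefined among the peaks kept. Loci called higher in ESCs and MEFs numbered 325 and 366 in the top 50% and 598 and 795 with 5 kb flanks, so that the order of the cell types turned under both. Without chromosome 8 they numbered 1216 and 1146. Gaps of 5 kb left 66 ESC and 18 MEF dense clusters, from 607 and 346. With centres within 1 kb and in the top 50%, NCoR met 1.77% and 1.61% of ESC-only peaks away from starts and 24.1% and 16.4% of shared starts; the day 13 FLAG list met 9.44% and 9.79% of ESC-only and 16.1% and 23.5% of MEF-only peaks away from starts, and 89.0% and 84.3% of shared starts. In the top 50%, 6.75% of MEF-only windows held TGANTCA and 23.8% of windows acetylated in both held CCGGAAG. Of 116 alternative list medians 94 moved by less than 1 peak and 22 by 1 or more, and none of the 20 medians away from 0 changed sign. Of these 20, 7 went to 0 in the top 50% (formative, LIF/BMP/FGF, epithelial, AP-1, limb and body position, co-repressor, endothelial and blood) and 7 with 5 kb flanks (formative, AP-1, RUNX, limb and body position, circadian and nuclear receptor, co-repressor, endothelial and blood). Single loci were rerun only for the genes of the naming rule: under 4 alternatives, 632 of their differences moved by less than 3 peaks and 139 by 3 or more without a change of sign, and 9 changed sign: to -2 at Wnt5b and -1 at Trp53 with 5 kb flanks, and in the top 50% to -1 at Tjp3 and Aldoa, 1 at Myh9, Tead1, Cbfb and Psmd11, and 2 at Meis2. The cause was not tested. No paired analysis was possible because each cell type has 1 library. Unknown read depth and the 1 library per cell type limit every comparison.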

Other observations

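The chromosomes did not divide the ESC-only and MEF-only peaks evenly. ESC-only peaks made up 48.4% of all peaks found in 1 cell type. On the autosomes the percentage ran from 42.8% on chromosome 18 (39.9 to 45.7%) to 56.2% on chromosome 8 (54.0 to 58.3%), and on the X chromosome it was 58.3% (54.0 to 62.4%). On chromosome 8, 112 of 1042 loci (10.8%) were called higher in ESCs, against 5.84% of the loci on the other chromosomes, and 47 were called higher in MEFs. Leaving the chromosome out changed the shared percentage of ESC peaks from 37.4% to 37.7%. Copy number in either culture was not tested.

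Genes of the two-cell stage and germline had 23 ESC and 6 MEF peaks over 12 loci. Of the 12, 5 had more peaks in ESCs, 4 of them by 3 or more, none had more in MEFs and 5 had no peak in either. Prdm1, a repressor that specifies germ cells, had 6 ESC peaks and 1 MEF peak, Kit, the stem cell factor receptor gene, 4 and 0, and Tfap2c, a germ cell and trophoblast factor gene, 4 and 0. In the top 50% of each list by score Tfap2c alone remained called, with 3 and 0, and Prdm1 and Kit had 1 and 0. Of 12 primitive endoderm and trophoblast genes 5 had more peaks in each cell type, with Tfap2a at 5 and 2 and Dab2 at 0 and 3. Of the 12 endothelial and blood genes 7 had more peaks in MEFs and 3 had more in ESCs, with Pecam1 equal at 5 and 5. Endothelial genes were not silent in the MEF list, with 4 peaks at Erg against 0 in ESCs and 4 at Gata2 against 1. Nearly all of these lay in the lower 50% of the MEF list by score, since the top 50% had no peak at Erg or Kdr in either cell type and 1 MEF peak at Gata2.

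Loci of the circadian and nuclear receptor genes had more peaks in MEFs at 11 of 21, 7 by 3 or more, and in ESCs at 2. The nuclear receptor genes Ppard and Rxra had 3 ESC and 8 MEF peaks each, and Nr2f2 had 2 and 7. None of the 7 MEF calls remained in the top 50%, where Ppard and Rxra had 2 and 4 each and Nr2f2 0 and 2, and the median difference of the list went from -1 to 0 with 5 kb flanks. Another gene of the list was newly called higher in MEFs in the top 50%, and 11 of the 21 still had more MEF peaks. Arntl, the gene of the clock activator BMAL1, ran the other way with 10 and 7, and 5 and 2 in the top 50%.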
